A study of Mus musculus with 6 samples.

Results

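Matrix proteases and their inhibitors were followed in C2C12 myotubes, muscle fibres formed in culture from a mouse myoblast line. The members were chosen by name: every gene whose symbol begins with Mmp or Timp and a number, or with Adam, and which had a probe set tied to 1 gene symbol. This gave 84 of the 19938 genes measured: 22 Mmp genes, 4 Timp genes, 34 Adam genes, 18 Adamts genes, 5 Adamtsl genes and Adamdec1. The study asked how knockdown of perilipin 2 (Plin2), a protein of the lipid droplet surface, changes gene expression in muscle cells given fatty acids. Cells were grown in 10% serum and differentiated in 2% serum on Matrigel, a coating of basement membrane proteins that these proteases can cut. All 6 cultures were transfected with siRNA at 10 nM. Scrambled siRNA was combined with albumin (BSA) alone, with oleate on BSA or with palmitate on BSA, and siRNA against Plin2 with the same 3 treatments. The fatty acids were given at 200 µM for 20 h, at 2.5 molecules per BSA, and BSA alone was the control. There was 1 array for each of the 6 conditions, from 1 cell line, and the labels do not say whether the cultures were made on separate days.

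Matrix metalloproteinases (Mmp) are zinc enzymes, secreted or held at the cell surface, that cut collagens, laminins and other matrix proteins. Adam proteins are mostly anchored in the membrane and release the outer parts of growth factors, cytokine receptors and Notch ligands. Adamts enzymes are secreted and cut proteoglycans and procollagens, and Adamtsl proteins resemble them but lack the protease domain. Timp proteins are small secreted inhibitors that block the active site of Mmp enzymes and, in part, of Adam and Adamts enzymes. In muscle these families take part in myoblast fusion, in the release of growth factors from the matrix and in repair.

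Values are log2 expression after RMA, which normalizes between arrays, so a difference of 1 is a doubling. A probe set's level depends on its probes, so the level of a gene was compared between arrays; a mean signal is set against the median named probe set only as a rough guide to strong or weak signal. Plin2 itself was at 9.29, 10.03 and 10.10 with scrambled siRNA (BSA, oleate and palmitate) and at 6.95, 7.63 and 7.45 with Plin2 siRNA. It fell by 2.47 (SE 0.080, n = 3 pairs, adjusted p = 2.3e-08 by limma). Array medians lay between 4.943 and 5.015, and arrays correlated across probe sets at 0.9912 to 0.9942 within an siRNA and at 0.9873 to 0.9915 between siRNAs. The labelled cell type was checked against marker genes: 16 of 16 myotube markers had mean signals above the median named probe set (5.805). So had 10 of 10 markers of undifferentiated myoblasts and 7 of 10 fibroblast markers, of which 2 rose and 2 fell with Plin2 siRNA. All 11 macrophage, 7 endothelial and 12 male germ cell markers, and 6 of 7 adipocyte markers, lay below that median. Differentiation markers moved with the siRNA, with 2 of 16 myotube markers past the threshold upwards (Mef2c by 1.23, Myod1 by 0.46) and 7 downwards (among them the differentiation factor Myog, by -0.69). The mean level of the myotube list was 10.75 to 11.12 on the scrambled arrays and 10.82 to 10.91 on the Plin2 siRNA arrays. Of 10 markers of undifferentiated myoblasts 4 rose (among them Id3, an inhibitor of differentiation) and 2 fell, and the mean level of this list was 8.99 to 9.12 with scrambled and 9.12 to 9.29 with Plin2 siRNA. For these counts and those of the fibroblast markers, 17.1% of all named probe sets were called with the siRNA. Among those at or above the median probe set, where all myotube and myoblast markers lay, 30.4% were. With palmitate against BSA, all 16 myotube markers had changes below 0, from -0.92 to -0.013. By limma 0 were called, and 7 had an unadjusted p under 0.05, beside 1134 of 21789 named probe sets. For palmitate against oleate 1 of the 16 was called, downwards, beside 0.262% of all named probe sets. The part of these markers in the changes below, with the siRNA or the fatty acids, was not tested. RNA came from whole cultures, so fewer cells of a state and less RNA per cell cannot be told apart.

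Promoter sequence is shown for 5 members because the inhibitors Timp1 and Timp2, the sheddase Adam10 and the proteoglycan-cutting enzyme Adamts1 changed with the siRNA, while Mmp13 stands for a group of neighbouring Mmp genes that did not pass the threshold. Each run is the 250 bases before the annotated start of transcription, 5′ to 3′ on the gene's own strand, from RefSeq on GRCm38.p6. Capitals mark matches on either strand to 6 motifs, and matches that overlap run together. The AP-1 motif was searched as TGANTCA and the cyclic AMP response element (CRE) as TGACGTCA. The GC box was searched as GGGCGG, and the muscle type of E-box was taken to be CAGCTG. For the TATA box the search used TATAAA, while an ETS core was searched as CAGGAAG.
Timp1 (chrX:20869916-20870165, plus strand): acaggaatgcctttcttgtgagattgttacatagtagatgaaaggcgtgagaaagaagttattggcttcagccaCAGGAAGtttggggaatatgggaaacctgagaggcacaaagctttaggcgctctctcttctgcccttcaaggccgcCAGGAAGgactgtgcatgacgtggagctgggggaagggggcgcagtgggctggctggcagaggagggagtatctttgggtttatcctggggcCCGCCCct
Timp2 (chr11:118355412-118355661, minus strand): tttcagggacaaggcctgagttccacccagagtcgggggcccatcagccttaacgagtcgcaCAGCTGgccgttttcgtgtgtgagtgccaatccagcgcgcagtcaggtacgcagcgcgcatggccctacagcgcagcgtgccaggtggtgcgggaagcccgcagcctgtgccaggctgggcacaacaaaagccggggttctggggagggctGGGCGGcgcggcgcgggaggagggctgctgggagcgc
Adam10 (chr9:70678732-70678981, plus strand): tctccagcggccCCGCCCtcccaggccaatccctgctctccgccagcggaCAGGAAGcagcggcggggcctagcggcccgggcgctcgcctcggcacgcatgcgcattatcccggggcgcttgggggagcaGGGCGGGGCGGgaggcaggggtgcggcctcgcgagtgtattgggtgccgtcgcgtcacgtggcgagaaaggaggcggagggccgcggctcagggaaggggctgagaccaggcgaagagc
Adamts1 (chr16:85803114-85803363, minus strand): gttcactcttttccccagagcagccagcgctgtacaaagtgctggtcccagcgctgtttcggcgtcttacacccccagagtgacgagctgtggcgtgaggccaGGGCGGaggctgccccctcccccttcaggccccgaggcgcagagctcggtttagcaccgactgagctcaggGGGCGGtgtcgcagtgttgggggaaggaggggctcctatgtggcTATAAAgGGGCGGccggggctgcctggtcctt
Mmp13 (chr9:7272264-7272513, plus strand): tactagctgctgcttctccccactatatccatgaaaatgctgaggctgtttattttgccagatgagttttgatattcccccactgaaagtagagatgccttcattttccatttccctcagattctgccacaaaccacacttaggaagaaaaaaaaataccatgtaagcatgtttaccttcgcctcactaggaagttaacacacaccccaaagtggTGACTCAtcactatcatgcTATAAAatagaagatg
A RefSeq promoter was found for 52 of the 84 members and for 14 of the 20 members that are described below as changed. Among the 32851 promoter windows of the same length from all genes, 6.7% held the AP-1 letters, 32.7% the GC box, 13.0% the E-box, 12.4% the TATA box, 10.8% the ETS core and 1.5% the CRE. These shares are per window, whereas a member was counted if any of its windows held the letters, and 4 members had more than 1 window. The GC box was present in 22 of the 52 members and in 11 of the 14 changed ones, 4 of 6 that rose and 7 of 8 that fell. Most changed members had strong signal, and no share was made for promoters of such genes. Whether the GC box goes with the changes was not tested. The E-box was found in 10 members and 5 changed ones, the ETS core in 10 and 4, the TATA box in 13 and 2, and the CRE in 0. Timp1, Timp2, Adam10 and Adamts1 each had the GC box. AP-1 letters were found in 12 of the 52 members and in 1 of the 14 changed ones, Adam19. Of these 12, 8 were Mmp genes (Mmp1a, Mmp1b, Mmp3, Mmp7, Mmp10, Mmp12, Mmp13 and Mmp20), all on chromosome 9 within a run of 10 neighbouring Mmp genes, and 7 of the 8 also had a TATA box. Their mean levels were 2.62 to 4.02, below the array medians, and their changes with Plin2 siRNA were -0.071 to 0.20. Of these 8 genes 0 passed the threshold (lowest limma adjusted p = 0.37), beside 3.73% of all named probe sets below the median probe set. In Adam19 the AP-1 letters and the E-box letters lay in separate windows. These matches describe letters in a window and not bound factors.

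Knockdown of Plin2 was accompanied by changes in both directions across the families. Of the 84 members, 7 rose and 13 fell at an adjusted p under 0.05 (limma, Benjamini-Hochberg over 21789 named probe sets), where 17.1% of all named probe sets were called, 8.5% upwards and 8.58% downwards. The 20 called members are 23.8% of the 84. The largest rise was that of Adam19 (1.19) and the largest fall that of Timp1 (-0.96). Over all 84 members the median change was 0.015, beside 0.0069 over all named probe sets. Calls were made mostly among members with strong signal: of 28 members at or above the median probe set, 17 were called (60.7%, beside 30.4% of all named probe sets in that range), and of 56 below it 3 were called (beside 3.73%). In all 20 the change had the same sign under BSA, oleate and palmitate, and the 3 scrambled arrays did not overlap the 3 Plin2 siRNA arrays. Such separation was seen in 28 of the 84 members and in 30.3% of all named probe sets.

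**Figure D1:**
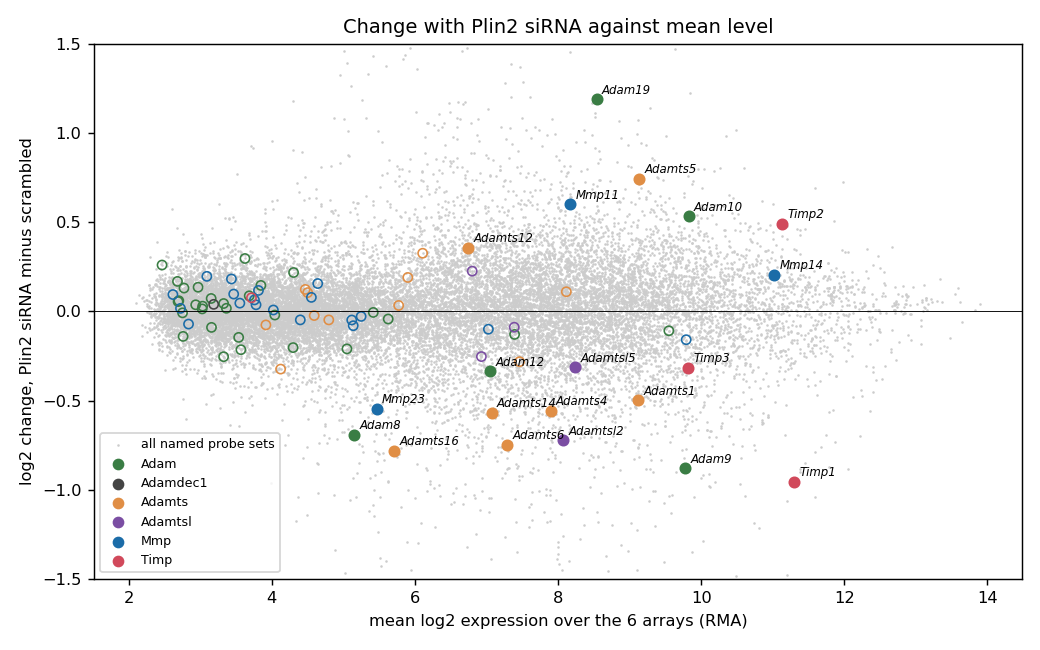
Each point is a probe set, with its mean log2 expression over the 6 arrays on the x axis and the log2 change with Plin2 siRNA on the y axis, cut at 1.5 in both directions. Grey points are all named probe sets, coloured filled points are members past the threshold and coloured open points are the other members; the filled points run from Timp1 (-0.96) to Adam19 (1.19), and most open points lie at low signal.

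The inhibitors did not move together. Of the 4 Timp genes 1 rose and 2 fell (75%, beside 17.1% of all named probe sets). These 3 lay at or above the median probe set, where 30.4% of all were called. Timp1, a secreted inhibitor of most Mmp enzymes, was at 11.60 (BSA), 11.78 (oleate) and 11.94 (palmitate) with scrambled siRNA and at 10.84, 10.94 and 10.66 with Plin2 siRNA (probe set 10598976). Every Plin2 siRNA array was lower than every scrambled array. The change was -0.96 (SE 0.087, n = 3 pairs, limma adjusted p = 2.4e-05), a 1.94-fold lower level, and the pair values were -0.76 (BSA), -0.83 (oleate) and -1.27 (palmitate). Timp2, which also takes part in the activation of pro-Mmp2 by Mmp14, moved the other way. It was at 10.92, 10.97 and 10.77 with scrambled siRNA and at 11.38, 11.43 and 11.33 with Plin2 siRNA, a rise of 0.49 (SE 0.057, adjusted p = 0.00013). Timp3, a matrix-bound inhibitor that also acts on Adam17 and on Adamts4 and Adamts5, was at 10.00, 9.93 and 10.00 with scrambled siRNA and at 9.76, 9.73 and 9.48 with Plin2 siRNA. It fell by 0.32 (SE 0.074, adjusted p = 0.012), with its lowest value in Plin2 siRNA cells given palmitate. Timp4 gave low signals of 3.51 to 4.04 on all arrays, and its groups overlapped (change 0.076, 95% interval -0.17 to 0.32, adjusted p = 0.76).

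**Figure D2:**
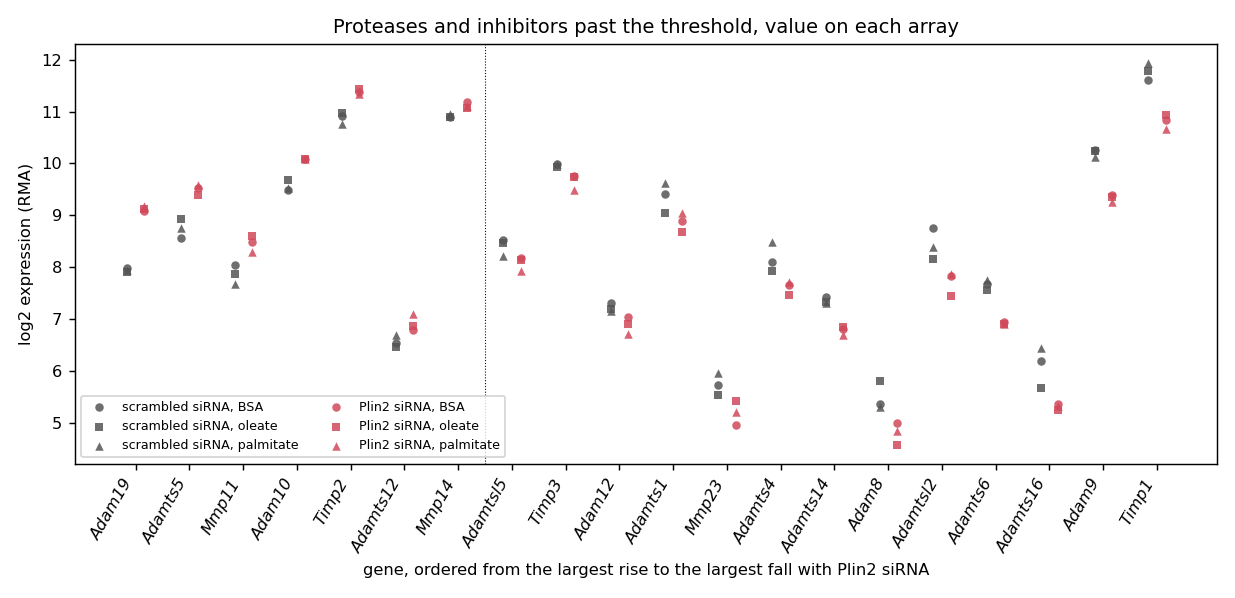
Log2 expression of the 20 members past the threshold on each array, grey for scrambled and red for Plin2 siRNA, with circles for BSA, squares for oleate and triangles for palmitate. Genes are ordered from the largest rise (Adam19) to the largest fall (Timp1), the dotted line parts the 7 that rose from the 13 that fell, and within each gene the grey and red points do not overlap.

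Of the membrane proteases, Adam19 rose and Adam9 fell. Adam19 (meltrin beta), which sheds neuregulins, was at 7.98, 7.91 and 7.93 with scrambled siRNA (BSA, oleate, palmitate) and at 9.09, 9.12 and 9.19 with Plin2 siRNA (probe set 10375402). Its change of 1.19 (SE 0.072, limma adjusted p = 1.4e-06), or 2.28-fold, was 1.11, 1.21 and 1.25 in the 3 pairs. The 3 arrays of each siRNA lay close together and far from those of the other siRNA. Adam9 (meltrin gamma), a widely expressed sheddase, was at 10.27, 10.25 and 10.12 with scrambled siRNA and at 9.39, 9.35 and 9.26 with Plin2 siRNA. It fell by 0.88 (SE 0.061, adjusted p = 3.5e-06), with pair values of -0.88, -0.90 and -0.86. The third of the meltrins, Adam12, known for its part in myoblast fusion, was at 7.32, 7.19 and 7.15 with scrambled siRNA and at 7.04, 6.90 and 6.71 with Plin2 siRNA. It fell by 0.33 (SE 0.088, adjusted p = 0.023).

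The main sheddases differed. Adam10, which cuts Notch receptors and cadherins, was at 9.48, 9.67 and 9.52 with scrambled siRNA and at 10.09 on each Plin2 siRNA array, a rise of 0.53 (SE 0.066, limma adjusted p = 0.00022). Adam17, which releases tumour necrosis factor and ligands of the epidermal growth factor receptor, was at 9.59 to 9.61 with scrambled siRNA and at 9.47 to 9.52 with Plin2 siRNA. Its groups did not overlap, but the change of -0.11 (95% interval -0.25 to 0.030, adjusted p = 0.32) did not pass the threshold. Adam8, a sheddase best known from leukocytes, was at 5.37, 5.81 and 5.30 with scrambled siRNA and at 4.99, 4.58 and 4.83 with Plin2 siRNA. It fell by 0.69 (SE 0.16, adjusted p = 0.011), and its pair value in oleate (-1.23) was larger than those in BSA (-0.37) and palmitate (-0.47). The macrophage marker Cd68 stood at -0.53 (limma adjusted p = 0.0086). It was the 1 of 11 macrophage markers past the threshold, beside 3.73% of named probe sets below the median probe set. Of the 11 markers, 5 had changes above 0 and 6 below (median -0.031), so the list as a whole did not fall with Cd68. The defining markers Ptprc (mean level 3.45) and Csf1r (3.84) gave signals below the array medians. The part of the macrophage markers in the change of Adam8 was not tested. Of the 34 Adam genes 2 rose and 3 fell (14.7%, beside 17.1% of all named probe sets). Of the 6 at or above the median probe set 4 were called (66.7%, beside 30.4%), and of the 28 below it 1 was. The 29 Adam genes that were not called, Adam17 included, had changes between -0.25 and 0.30 (lowest adjusted p = 0.11). Among them were all 21 listed Adam genes of testis or epididymis, such as Adam2 and Adam3 of the sperm surface, whose mean levels were 2.46 to 4.30. Close copies among these genes (Adam6a and Adam6b, Adam26a and Adam26b, Adam34 and Adam34l) may share signal between probe sets.

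Of the 22 Mmp genes 2 rose and 1 fell (13.6%, beside 17.1% of all named probe sets). Most had weak signal: 18 lay below the median probe set, with 1 called (beside 3.73% of all in that range). Of the 4 at or above it 2 were called (50%, beside 30.4%). Mmp11 (stromelysin 3), an Mmp that furin activates inside the cell, was at 8.04, 7.87 and 7.68 with scrambled siRNA and at 8.49, 8.60 and 8.30 with Plin2 siRNA. It rose by 0.60 (SE 0.081, limma adjusted p = 0.00038), and within each siRNA its lowest value was in palmitate. Mmp14, the membrane collagenase that activates pro-Mmp2, was at 10.89, 10.89 and 10.96 with scrambled siRNA and at 11.19, 11.07 and 11.11 with Plin2 siRNA. This rise of 0.20 (SE 0.058, adjusted p = 0.032) was the smallest of the called changes, and it was no longer called in 5 of 14 alternative fits. Those fits are not separate checks: leaving out either BSA array gave the same change of 0.16. Mmp23, a short membrane enzyme, was at 5.72, 5.53 and 5.96 with scrambled siRNA and at 4.95, 5.42 and 5.20 with Plin2 siRNA. It fell by 0.54 (SE 0.14, adjusted p = 0.021), with a pair value of only -0.11 in oleate. Mmp2 (gelatinase A) was at 9.71, 9.77 and 10.12 with scrambled siRNA and at 9.64, 9.67 and 9.82 with Plin2 siRNA, and its groups overlapped (-0.16, 95% interval -0.31 to -0.0086, adjusted p = 0.16). Mmp9 (gelatinase B) lay between 4.35 and 4.82 on all arrays (0.079, adjusted p = 0.80). The 19 Mmp genes that were not called had changes of -0.16 to 0.20. Mmp15 had no probe set tied to 1 symbol and was not analysed here.

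Of the 18 Adamts genes 2 rose and 5 fell (38.9%, beside 17.1% of all named probe sets). Of the 10 at or above the median probe set 6 were called (60%, beside 30.4% of all in that range), and of the 8 below it 1 was (beside 3.73%). Enzymes that cut versican and aggrecan split in direction: Adamts5 rose, and Adamts1 and Adamts4 fell. Adamts5 was at 8.57, 8.94 and 8.76 with scrambled siRNA and at 9.53, 9.40 and 9.58 with Plin2 siRNA, a rise of 0.74 (SE 0.090, limma adjusted p = 0.00019). Adamts1 was at 9.42, 9.05 and 9.63 with scrambled siRNA and at 8.89, 8.67 and 9.04 with Plin2 siRNA, a change of -0.50 (SE 0.070, adjusted p = 0.00054). The lowest scrambled array, with oleate, and the highest Plin2 siRNA array, with palmitate, almost met. Adamts1 and Adamts5 are neighbouring protein-coding genes on chromosome 16, the 1 pair of adjacent members of which both were called. Adamts4 was at 8.11, 7.93 and 8.49 with scrambled siRNA and at 7.66, 7.46 and 7.72 with Plin2 siRNA, and it fell by 0.56 (SE 0.087, adjusted p = 0.0011). Of the other 4 members of that group, Adamts8, Adamts9, Adamts15 and Adamts20, 0 were called.

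Further Adamts genes fell. Adamts6, an enzyme tied to fibrillin microfibrils, was at 7.67, 7.56 and 7.76 with scrambled siRNA and at 6.93, 6.91 and 6.90 with Plin2 siRNA (-0.75, SE 0.086, limma adjusted p = 0.00013). Its close relative Adamts10 did not pass the threshold (0.33, SE 0.10, adjusted p = 0.055). Adamts14, which trims the ends of procollagens, was at 7.42, 7.33 and 7.32 with scrambled siRNA and at 6.81, 6.85 and 6.70 with Plin2 siRNA (-0.57, SE 0.088, adjusted p = 0.00094). Adamts16 was at 6.19, 5.66 and 6.44 with scrambled siRNA and at 5.37, 5.25 and 5.33 with Plin2 siRNA (-0.78, SE 0.14, adjusted p = 0.0021), and its scrambled values were further apart than its Plin2 siRNA values. Adamts12, which cuts cartilage oligomeric matrix protein, rose from 6.53, 6.47 and 6.68 to 6.79, 6.87 and 7.09 (0.36, SE 0.092, adjusted p = 0.020). Just outside the threshold, Adamts17 stood at -0.28 (SE 0.089, adjusted p = 0.051); just inside it was Mmp14.

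Of the 5 Adamtsl genes 2 were called (40%, beside 17.1% of all named probe sets), and both fell. All 5 lay at or above the median probe set, where 30.4% of all were called. Adamtsl2, a protein of fibrillin microfibrils, was at 8.75, 8.15 and 8.39 with scrambled siRNA and at 7.83, 7.44 and 7.86 with Plin2 siRNA (-0.72, SE 0.088, limma adjusted p = 0.00019). Adamtsl5 was at 8.52, 8.47 and 8.21 with scrambled siRNA and at 8.19, 8.14 and 7.93 with Plin2 siRNA (-0.31, SE 0.073, adjusted p = 0.011). The other 3 Adamtsl genes stood between -0.25 and 0.23. Only 4 members had more than 1 probe set. The 16 probe sets of Adamts3 ranged from -0.42 to 0.20 (1 called), the 6 of Adamts9 from -0.017 to 0.62 (1 called), the 5 of Adamts17 from -0.28 to 0.062 (0 called) and the 2 of Adamtsl1 from 0.17 to 0.23 (0 called).

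**Figure D3:**
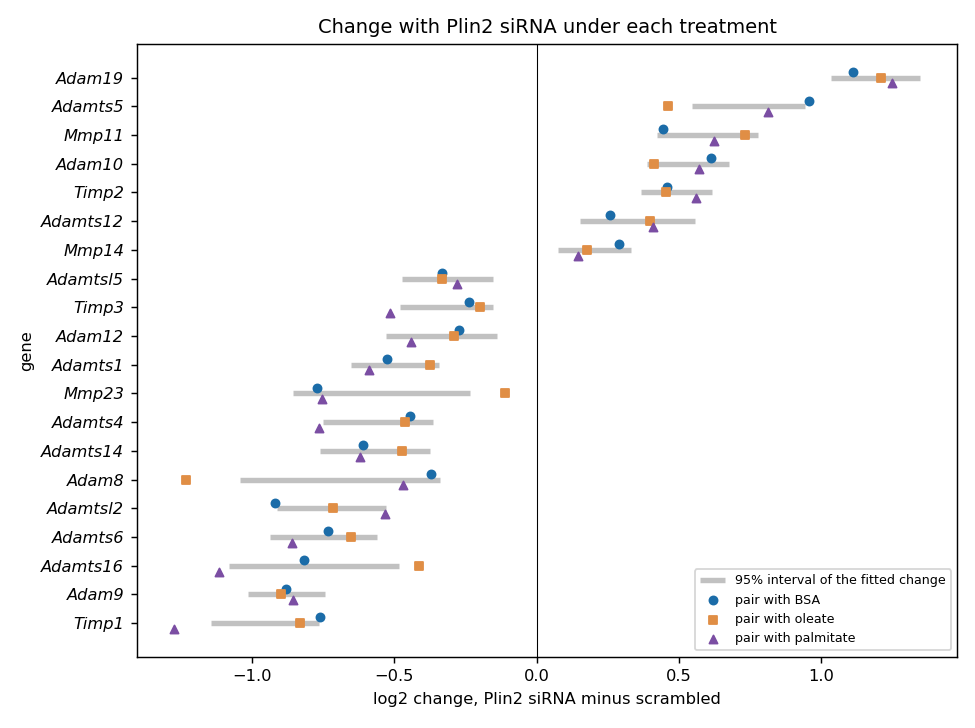
Log2 change with Plin2 siRNA for each of the 20 called members (y axis), as the difference between the paired arrays under BSA (circles), oleate (squares) and palmitate (triangles), with a grey bar for the 95% interval of the fitted change. All 3 pair values lie on the same side of 0 for each gene; they are close together for Adam9 (-0.90 to -0.86) and spread for Adam8 (-1.23 to -0.37).

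Calls differed in how far they held. Of the 20, 13 remained past the threshold in every alternative fit except the paired test without moderation, under which 0 of the 84 members and 0 of the 21789 probe sets passed (20 and 3833 at an unadjusted p under 0.05). The 7 that were lost in some fits were Timp3, Adam8, Adam12, Mmp14, Mmp23, Adamts12 and Adamtsl5. Without the scrambled BSA array the adjusted p was 0.088 for Adam12, 0.061 for Adamts12, 0.096 for Adamtsl5, 0.36 for Mmp14 and 0.145 for Mmp23; without scrambled palmitate it was 0.0845 for Adam12, 0.057 for Adamts12, 0.086 for Mmp23 and 0.057 for Timp3. Without scrambled oleate it was 0.064 for Adam8 and 0.056 for Adamts12, and the change of Adam8 went from -0.69 to -0.42. Leaving out the Plin2 siRNA array of the same treatment gave the same changes and lost the same calls, so these fits are not separate checks. The other probe set rules kept the estimate of each of the 20, none of which had several probe sets.

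Genes that act with these enzymes also changed, in both directions. Of 13 listed genes of protease maturation and trafficking, 3 rose and 3 fell. Partner tetraspanins that carry Adam10 to the cell surface differed: Tspan14 was at 9.78, 9.97 and 9.60 with scrambled siRNA and at 10.55, 10.61 and 10.54 with Plin2 siRNA (0.79, SE 0.069, limma adjusted p = 1.9e-05). Tspan15 was at 8.76, 8.97 and 8.64 with scrambled siRNA and at 7.16, 7.35 and 7.31 with Plin2 siRNA (-1.52, SE 0.084, adjusted p = 7.7e-07). Tspan5 rose by 0.29, and Furin, the protease that removes the inhibitory propeptide of many Adam and Adamts enzymes, fell by 0.58 (SE 0.11, adjusted p = 0.0041). Of 9 measured genes of plasminogen activation, a serine protease pathway that activates several Mmp enzymes, 4 fell and 0 rose, and all 9 had changes below 0 (median -0.20). They included urokinase (Plau, -0.54, adjusted p = 0.00047) and its receptor (Plaur, -0.61, adjusted p = 0.0014). Of 16 other protease inhibitors and matrix regulators 1 rose and 4 fell, with the cystatin Cst6 at -0.60; Reck, a membrane inhibitor of Mmp enzymes, stood at 0.17 (adjusted p = 0.36).

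Substrates were likewise mixed. Of 26 matrix substrates 5 rose and 4 fell. Versican (Vcan), the proteoglycan that Adamts1, Adamts4 and Adamts5 cut, was at 8.35, 8.37 and 8.68 with scrambled siRNA and at 7.26, 7.24 and 7.38 with Plin2 siRNA (-1.18, SE 0.080, limma adjusted p = 2.9e-06). Tnc also fell (-1.40), while the laminin chain Lama2 (0.85) and the collagen Col6a1 (0.42) rose. Of 26 measured membrane proteins known to be shed, 3 rose and 8 fell: the Notch ligand Jag1 rose by 0.82 (SE 0.075, adjusted p = 2.6e-05), and the growth factors Hbegf (-0.79) and Ereg (-0.63) and the cadherin Cdh15 (-0.62) fell. Of 19 measured transcription factors known to act on Mmp genes, 4 rose and 4 fell, with Atf3 at -1.60, Fos at -0.84, Snai2 at 0.99 and Etv5 at 0.86. Among 13 other metalloproteinases only Ece1 changed (-0.52), and of 16 measured other matrix-degrading genes Htra3 fell (-0.61) and Htra1 rose (0.28). The counts of the related lists compare with 17.1% called over all named probe sets, and with 30.4% of those at or above the median probe set. Many listed genes lie in that range, such as 21 of 26 shed proteins and 16 of 19 transcription factors. Within it the share called ran from 18.2% (11 other matrix-degrading genes) to 66.7% (6 genes of plasminogen activation). The lists hold genes picked from textbook roles, with no test of the list.

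**Figure D4:**
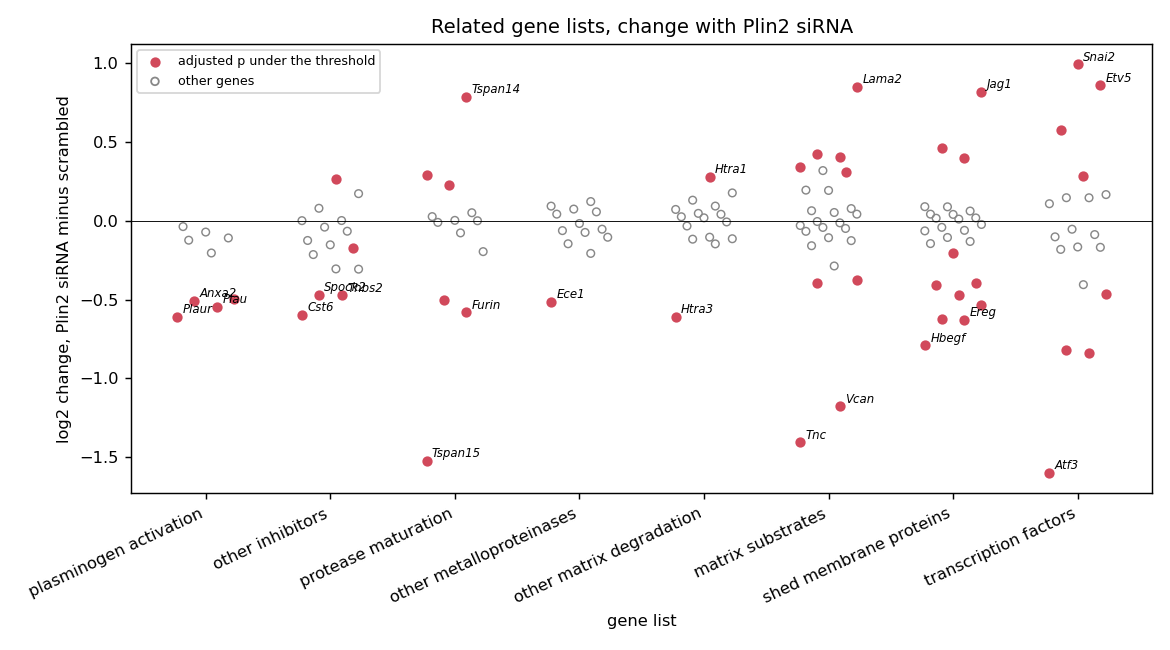
Log2 change with Plin2 siRNA (y axis) for the genes of 8 related lists (x axis), filled red where the adjusted p was under 0.05 and open grey otherwise, with up to 3 of the largest changes named per list. Most lists hold points on either side of 0; protease maturation runs from Tspan15 (-1.52) to Tspan14 (0.79), while the 9 genes of plasminogen activation all lie below 0.

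Fatty acids left no member past the threshold. With oleate 0 of 84 members were called by limma (0.0734% of all named probe sets were). An unadjusted p under 0.05 was seen in 9 members, beside 1365 of 21789 named probe sets. Fitted changes lay between -0.50 (Adamtsl2) and 0.60 (Adam1a). With palmitate 0 were called (0.00918% of all), 8 had an unadjusted p under 0.05 (beside 1134 of 21789), and changes lay between -0.40 (Timp4) and 0.47 (Adam1a). These comparisons share the BSA arrays. Adamtsl2 was lower with oleate than with BSA in both siRNAs, by -0.60 with scrambled and -0.40 with Plin2 siRNA (fitted change -0.50, SE 0.11, n = 2 pairs, adjusted p = 0.21; 0.029 to 1 over 14 alternative fits, 4 of them past the threshold). Adam1a stood at 0.60 (SE 0.14, adjusted p = 0.27), at a low signal of 3.87 to 4.71.

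The fatty acids were also compared with each other at the same dose and time, as 1 pair of compounds; palmitate is saturated, and oleate has a cis double bond and a longer chain. No member passed the threshold (0 of 84 by limma, beside 0.262% of all named probe sets). At an unadjusted p under 0.05 there were 9 members, beside 2007 of 21789 named probe sets. Over all members the 95% intervals of the difference reached from -0.56 to 0.79, so a missed threshold does not show equal levels. Adamts1 came closest. It was 0.58 higher with palmitate than with oleate in scrambled cells and 0.37 higher in Plin2 siRNA cells, a fitted difference of 0.48 (SE 0.086, 95% interval 0.29 to 0.66, n = 2 pairs, adjusted p = 0.06). Over 15 alternative fits its adjusted p ran from 0.00048 to 0.54, with 3 past the threshold. Adamts4 showed differences of 0.56 and 0.26 (fitted 0.41, SE 0.11, adjusted p = 0.24; 0.031 to 0.81 over alternatives). Mmp2 was highest in palmitate in both siRNAs, with a difference of 0.25 from oleate (95% interval 0.068 to 0.44, adjusted p = 0.40).

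**Figure D5:**
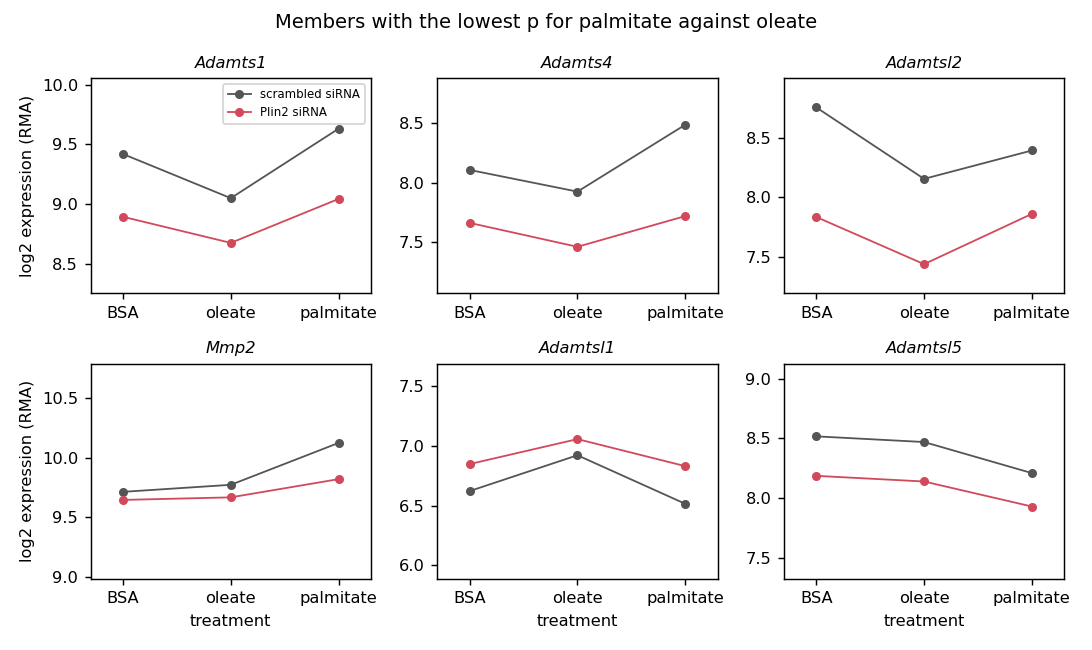
Log2 expression (y axis) under BSA, oleate and palmitate (x axis) in scrambled (grey) and Plin2 siRNA cells (red) for the 6 members with the lowest p for palmitate against oleate, 1 array per point, every panel spanning the same range of log2 units. Adamts1 is lowest in oleate and highest in palmitate with either siRNA, and none of the 6 passed the threshold (adjusted p = 0.06 for Adamts1).

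The change with Plin2 siRNA was then compared between BSA and fatty acid, by an interaction term with 1 residual degree of freedom. It called 0 of 84 members and 0% of all named probe sets (1 member, Mmp25, at an unadjusted p of 0.048). For Timp1 the interaction was -0.29 (95% interval -0.67 to 0.086, adjusted p = 1). The response of Timp1 to palmitate against oleate was 0.16 with scrambled and -0.28 with Plin2 siRNA, each from 1 array per condition and with no test. The median change of the 84 members with Plin2 siRNA was 0.040 (BSA), 0.049 (oleate) and -0.12 (palmitate), beside 0.018, 0.029 and -0.031 over all named probe sets.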

How the data were processed

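Total RNA (100 ng, integrity number above 8.0) was labelled with biotin and hybridised to Affymetrix whole-transcript arrays, per the labels' protocols. The deposited values are log2 expression per probe set, made by the authors with RMA, per the submitters' processing notes. For its version and for any genome build, nothing was found (not given in the sources used here). A base of 2 is the usual RMA output, and the range of values fits it. Of 35556 probe sets, 21789 were tied to 1 symbol by GEO's platform annotation, 1621 to several, and 12146 were unnamed. Where a gene had several probe sets, that of highest mean was used. All 84 members matched RefSeq (GRCm38.p6) by Entrez ID, and 0 symbols changed. Another 2 probe sets named a member among several symbols and were not used.

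The fits used limma 3.58.1 (R 4.3.3) over all named probe sets, with treatment and siRNA as terms and eBayes with an intensity trend, leaving 2 residual and 9.21 prior degrees of freedom. The error of each change comes from the spread of a probe set left after both terms are fitted. It is drawn by eBayes towards the spread of probe sets of similar signal, which carries most of the degrees of freedom. An SE is therefore not the spread of a gene's own pairs alone. P-values thus rest on the spread between these arrays, in part that of other probe sets, and the number of arrays limits the precision. They were adjusted by Benjamini-Hochberg over 21789 probe sets. The script was tested on simulated data.

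Members, lists and rules were chosen with earlier results of these data known. Genes were named if they were Timp genes, passed the threshold, had the highest means of their family or lay nearest the threshold; in related lists up to 4 called genes with the largest changes were named. Other genes in the text, such as Tspan5, Reck, Mmp9, Mmp25, Adam1a, Adam17 and the markers, were named after their values were seen. Alternatives were no intensity trend, all probe sets, quantile normalization, median centring, leaving out the probe sets of lowest mean (14526 kept), each array left out, other probe set rules, no Adamtsl genes or Adamdec1, 4 arrays only, and an unmoderated paired test.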

Additional observations from a re-analysis of the deposited data

How the results depend on the processing

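None of the 20 called members changed direction with Plin2 siRNA in the alternative fits, but most of these fits could not reverse a sign. All 20 had the same sign in the 3 pairs, so leaving out 1 array keeps it. Changing the trend, the probe sets in the fit or the probe set rule left the estimates of these members as they were. The 7 rises and 13 falls became 5 and 8 with all probe sets in the fit, where 6.07% of probe sets were called, and 0 and 0 in the paired test without moderation, which has 2 degrees of freedom (lowest adjusted p among members 0.16). Leaving out 1 array gave 5 to 7 rises and 10 to 14 falls. Centring arrays on their median gave 6 and 14, and quantile normalization 7 and 13. Oleate called 0 to 1 members when 1 array was left out and 1, Adamtsl2, on the 4 BSA and oleate arrays alone. Palmitate against oleate called 1, Adamts1, without the probe sets of lowest mean (adjusted p = 0.032), and 0 to 3 when 1 array was left out: Adamts1, Adamts4 and Adamts16 without Plin2 siRNA oleate, and Adamts1, Adamts4 and Mmp3 without Plin2 siRNA palmitate. These fits called 538 and 440 of all 21789 named probe sets, against 57 on 6 arrays. Palmitate against BSA and the interaction called 0 in every fit that could be made; the interaction leaves no residual degree of freedom on 5 arrays. Adamts10 and Adamts17 passed the threshold without the probe sets of lowest mean (adjusted p = 0.034 for each). Why these values moved was not tested. The labels give no replicate numbers, and the pairs of the paired test are the arrays of the same treatment. Of 64 members not called, 53 had a mean below the median probe set, and the 95% intervals of the 64 reached a median of 0.245 to either side of the change.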

Other observations

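Changes of adjacent members were set side by side through the RefSeq order of protein-coding genes. In the chromosome 9 run of 10 Mmp genes, Mmp27 stood at 0.097 and Mmp8 at 0.017, the members of the run without AP-1 letters in their window. On chromosome 8, Adam9 (-0.88) adjoins Adam32 (0.087), a gene known from testis, whose change did not pass the threshold (adjusted p = 0.71).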
